A study of Mus musculus with 24 samples.

Results

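The collagen genes described here are the 42 genes whose symbol in the platform annotation has the form of a collagen chain, Col with a type number followed by a and a chain number. They were 42 of the 19505 genes of the table, and each had 1 row, so no row had to be chosen among several. The genes were picked by name and not by their values. The study placed total RNA of mouse brain on 24 microarrays, 1 array each for the cerebral cortex, hippocampus and cerebellum of 8 animals, to ask what a raised ammonia load does to the brain. Of the animals, 4 were wild type (WT) and 4 carried a knockout of glutamine synthetase, the enzyme that fixes ammonia into glutamine, restricted to the liver (KO). The 6 groups were thus cortex WT, cortex KO, hippocampus WT, hippocampus KO, cerebellum WT and cerebellum KO, with 4 arrays in each. The sources used here give no Cre line, strain, age or sex. The deletion lies in the liver, so brain RNA offers no check of it.

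Collagens are extracellular proteins built of chains that wind around each other into a helix. Fibrillar chains build the fibres of the meninges and of vessel walls, type IV chains form the sheet of every basement membrane, and multiplexins sit in vascular and epithelial basement membranes. Other chains link fibrils, form beaded filaments or span the membrane, and several of these are made by neurons. In the adult brain most collagen RNA comes from meningeal fibroblasts and cells of the vessel wall. By class the 42 genes were 11 fibrillar chains, 6 type IV chains, 3 short-chain collagens, 8 chains of type VI and of the beaded or related filaments, 8 fibril-associated (FACIT) chains, 2 multiplexins and 4 transmembrane collagens. Their platform symbols all matched a RefSeq gene. In bulk tissue, fewer cells of a type and less RNA per cell cannot be told apart.

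Of these genes, 8 pairs are direct neighbours on a chromosome in the RefSeq annotation, among them Col4a1 with Col4a2 and Col6a2 with Col6a1. Sequences around the starts of the genes on which the region results turn are shown first, because Col18a1 has 2 starts in the RefSeq promoter table and Col4a1 and Col4a2 share a start region and differed between regions in the same direction. The Col18a1 windows hold the 250 bases before each start on the minus strand of GRCm38.p6, at chr10:77166531-77166780 and chr10:77113706-77113955. The starts lie 52825 bases apart. Capitals mark the GC box GGGCGG and the CCAAT box, on either strand.

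Col18a1 upstream start: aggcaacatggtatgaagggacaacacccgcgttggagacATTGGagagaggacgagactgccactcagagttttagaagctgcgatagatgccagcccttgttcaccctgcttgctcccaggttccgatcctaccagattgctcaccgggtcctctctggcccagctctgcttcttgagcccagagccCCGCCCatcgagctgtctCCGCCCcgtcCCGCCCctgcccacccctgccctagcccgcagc
Col18a1 downstream start: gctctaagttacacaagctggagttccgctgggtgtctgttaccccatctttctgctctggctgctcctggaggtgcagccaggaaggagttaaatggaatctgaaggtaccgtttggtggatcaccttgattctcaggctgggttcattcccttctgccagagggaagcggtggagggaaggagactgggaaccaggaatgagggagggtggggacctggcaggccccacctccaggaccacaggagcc

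The upstream window held 3 GC boxes and 1 CCAAT box, and the downstream window held neither. Which start supplied the RNA cannot be told from 1 value per gene. Col4a1 and Col4a2, the chains that assemble into the common type IV collagen of vessels, start back to back on chromosome 8. Col4a2 starts at base 11312805 on the plus strand and Col4a1 at base 11312826 on the minus strand, so the 22 bases at chr8:11312805-11312826 hold both starts and 1 GC box, in capitals.

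Col4a1 and Col4a2 start region: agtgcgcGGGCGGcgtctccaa

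The promoter table held 37 starts of 34 of the 42 genes. A GC box (GGGCGG or its reverse complement) stood in 21 of these 37 windows, or 56.76%, against 32.74% of the 32851 windows of all genes. A CCAAT box (CCAAT or its reverse complement) stood in 32.43% of the collagen windows and 33.85% of all, and the letters TATAAA, on either strand, in 13.51% and 12.37%. These matches are letters in a window and were not tested as sites.

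The values are the authors' RMA output, which was read as log2 from its range, and a difference of 1 was therefore taken as a 2-fold difference. Array medians ran from 8.72 to 8.82. Levels of different genes were not ranked, since each row has its own probes. Neighbouring tissue showed on a few arrays. The mean of 18 olfactory bulb markers was 11.75 on cortex KO 1 and 11.15 on cortex KO 4, against 8.68 to 9.15 on the other 6 cortex arrays. The mean of 17 brainstem and spinal cord markers was 10.17 on cerebellum KO 3, against 7.99 to 8.46 on the other 7 cerebellum arrays, and the mean of 14 cerebellar markers was 13.00 there, against 14.24 to 14.68. Choroid plexus markers, 18 in number, ranged from 8.21 to 11.09 over the hippocampus arrays and from 8.06 to 10.39 over the cerebellum arrays. For the comparisons that use these arrays, values without them are given where a call was lost or a value moved most.

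The clearest difference between regions was that of Col18a1, the multiplexin whose C-terminal fragment is endostatin, which was higher in the cerebellum. Its values were 7.37, 7.62, 7.39 and 7.60 on the cortex WT arrays and 8.03, 7.48, 7.45 and 7.45 on the cortex KO arrays. On the hippocampus arrays they were 7.70, 7.40, 7.51 and 7.87 in WT and 8.02, 7.73, 8.03 and 7.68 in KO. On the cerebellum arrays they were 10.13, 10.46, 10.22 and 10.80 in WT and 9.39, 9.97, 8.99 and 10.27 in KO. Every cerebellum array thus lay above every array of the other 2 regions, and cerebellum KO 3 was the lowest of the 8. In WT the cerebellum exceeded the cortex by 2.91 (SE 0.20, adjusted p = 1.451e-11) and the hippocampus by 2.78 (SE 0.20, adjusted p = 3.06e-11), 7.51-fold and 6.88-fold. In KO the differences were 2.05 (SE 0.20, adjusted p = 1.073e-08) and 1.79 (SE 0.20, adjusted p = 1.007e-07). Without cerebellum KO 3 they were 2.27 and 2.02. Hippocampus and cortex differed by 0.13 in WT, which did not pass the test. The other multiplexin, Col15a1 of vascular basement membranes, had region means between 8.41 and 8.62 over the 8 arrays of each region, and none of its differences between regions passed.

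**Figure D1:**
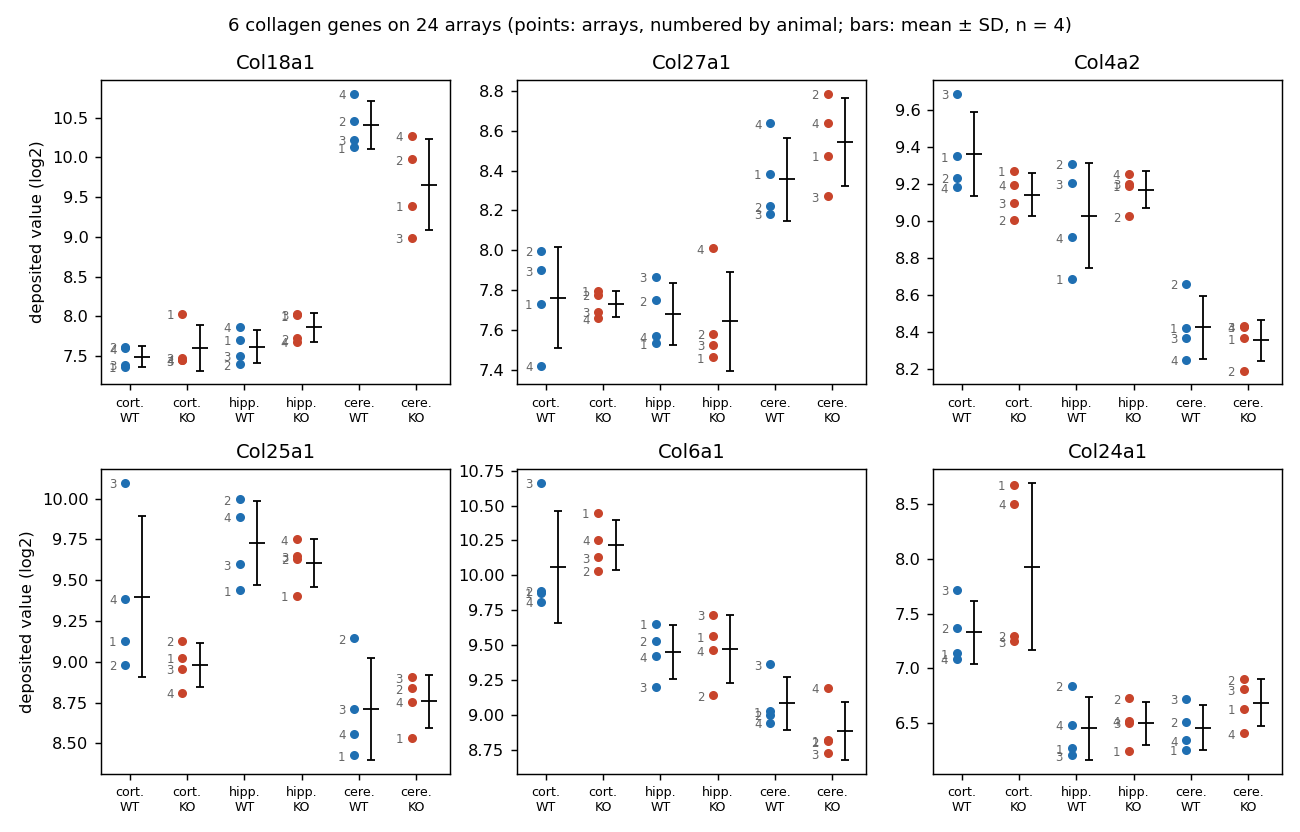
Deposited log2 values of 6 collagen genes on the 24 arrays, by region (cortex, hippocampus, cerebellum) and genotype (blue WT, red KO). Points are arrays numbered by animal within a genotype, and the bars beside them give the mean ± SD of 4 arrays. All 8 cerebellum arrays stand above the rest for Col18a1 and Col27a1 and below the rest for Col4a2, and Col24a1 is highest on cortex KO 1 and cortex KO 4.

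Col4a1 and Col4a2 were both lower in the cerebellum than in the cortex. Col4a2 was 9.35, 9.23, 9.69 and 9.18 on the cortex WT arrays, 8.69, 9.31, 9.20 and 8.91 on the hippocampus WT arrays, and 8.42, 8.66, 8.37 and 8.25 on the cerebellum WT arrays. In KO it was 9.27, 9.005, 9.10 and 9.19 in the cortex, 9.19, 9.02, 9.20 and 9.25 in the hippocampus, then 8.37, 8.19, 8.43 and 8.43 in the cerebellum. The cerebellum arrays lay below all others in both genotypes. The difference from the cortex was -0.94 in WT (SE 0.13, adjusted p = 1.771e-06) and -0.79 in KO (SE 0.13, adjusted p = 2.802e-05). The difference from the hippocampus was -0.60 in WT (adjusted p = 0.0005466) and -0.81 in KO (adjusted p = 1.83e-05). All 4 stayed short of the 2-fold minimum that a region call required.

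Col4a1 was 9.61, 9.46, 9.72 and 9.57 in cortex WT, 9.46, 9.64, 9.53 and 9.40 in hippocampus WT, and 8.96, 9.21, 8.998 and 9.24 in cerebellum WT. The KO values were 9.69, 9.40, 9.36 and 9.25 in the cortex, 9.18, 9.24, 9.39 and 9.47 in the hippocampus, then 9.04, 9.04, 8.97 and 9.17 in the cerebellum. Cerebellum and cortex did not overlap in either genotype. The difference was -0.49 in WT (SE 0.11, adjusted p = 0.0005237) and -0.37 in KO (SE 0.11, adjusted p = 0.008203). Cerebellum minus hippocampus was -0.41 in WT (adjusted p = 0.003242) and did not pass in KO. The 19 measured endothelial markers had a median difference between cerebellum and cortex of -0.07 in WT and 0.06 in KO, and the 18 mural markers one of -0.06 and -0.01. The part of vessel content in the type IV values was not tested.

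The other type IV chains, which form the networks of kidney, eye and muscle basement membranes, passed in at most 1 comparison each. Col4a5 passed in 1 comparison, higher in cerebellum than cortex in WT by 0.43 (SE 0.13, adjusted p = 0.007643) with overlapping arrays, and by 0.17 in KO, where it did not pass. Its WT arrays read 6.29, 6.34, 6.23 and 6.84 in the cortex and 6.78, 6.79, 6.97 and 6.89 in the cerebellum. Col4a3, Col4a4 and Col4a6 passed in no comparison between regions.

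Col6a1, a chain of the microfilaments around cells and vessels, was lower in hippocampus and cerebellum than in cortex. In WT it was 9.87, 9.89, 10.66 and 9.81 in the cortex, 9.65, 9.53, 9.20 and 9.42 in the hippocampus, then 9.03, 9.002, 9.36 and 8.95 in the cerebellum. In KO it was 10.45, 10.03, 10.13 and 10.26 in the cortex, 9.56, 9.14, 9.72 and 9.46 in the hippocampus, then 8.82, 8.81, 8.73 and 9.19 in the cerebellum. Cortex arrays lay above those of both other regions in each genotype, while hippocampus and cerebellum overlapped. Cerebellum minus cortex was -0.97 in WT (SE 0.17, adjusted p = 3.095e-05) and -1.33 in KO (SE 0.17, adjusted p = 4.879e-07), a 2.51-fold difference in KO. Hippocampus minus cortex was -0.61 in WT (adjusted p = 0.02358) and -0.74 in KO (adjusted p = 0.00442). Cerebellum minus hippocampus was -0.58 in KO (adjusted p = 0.007465) and did not pass in WT. Hippocampus minus cortex in KO did not pass without cortex KO 1 and KO 4 (-0.61, adjusted p = 0.08479).

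Among the other chains of this class, Col6a2, the partner chain and neighbour of Col6a1, was lower in cerebellum than cortex by 0.71 in WT (adjusted p = 0.001526) and by 0.72 in KO (adjusted p = 0.00172). In neither genotype did its arrays overlap. Col26a1, an extracellular chain first found in gonads, was lower in cerebellum than cortex by 0.84 in WT (adjusted p = 3.192e-06) and by 0.55 in KO (adjusted p = 0.0008736). In WT its hippocampus lay between the other regions, 0.46 below the cortex (adjusted p = 0.01823). Col6a4 was lower in cerebellum than cortex by 0.43 in WT (adjusted p = 0.01521), while the KO difference was 0.03 and did not pass. Col6a3, Col6a5, Col6a6 and Col28a1 passed in no comparison between regions.

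The classical fibrillar chains of the meninges showed no region difference past the test. Col1a1 and Col1a2, which make type I collagen, and Col3a1, which makes type III collagen, passed in none of the 6 region comparisons. Col1a1 read 10.33, 9.73, 9.90 and 10.02 in cortex WT, 10.04, 10.02, 9.95 and 9.94 in hippocampus WT, and 9.95, 9.999, 9.72 and 9.63 in cerebellum WT. Its KO arrays read 9.92, 10.13, 9.79 and 9.55 in the cortex, 9.75, 9.73, 9.78 and 10.09 in the hippocampus, then 9.68, 10.003, 9.74 and 9.79 in the cerebellum. All 6 groups overlapped. Col1a2 ranged from 8.32 to 8.83 over the 8 cortex arrays (median 8.50), from 8.01 to 8.62 in the hippocampus (median 8.33) and from 8.40 to 8.87 in the cerebellum (median 8.52). Col3a1 ranged from 6.997 to 7.59, from 6.75 to 7.36 and from 7.09 to 7.47, with medians of 7.17, 7.06 and 7.24.

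These values were set against other genes of meningeal fibroblasts, since these cells are known as the main source of type I collagen in brain tissue. Decorin (Dcn), a proteoglycan that binds collagen fibrils, ranged from 9.78 to 12.37 over the cortex arrays, from 12.16 to 14.07 over the hippocampus arrays and from 11.43 to 12.78 over the cerebellum arrays. Other markers of this list did not all follow Dcn. The cerebellum median was above the cortex median for Dcn (11.71 against 10.90) and Lum (6.98 against 6.86). It was below for Ogn (10.07 against 10.22), Fmod (8.96 against 9.75) and Slc6a13 (10.29 against 10.40). Each of these genes had its highest median in the hippocampus, from 7.38 for Lum to 13.25 for Dcn. Within the cortex, 14 of 25 meningeal fibroblast markers spanned at least 1 on the log2 scale over the 8 arrays, against 4 of the 42 collagen genes (9.52%) and 7.97% of all genes. Hippocampus arrays gave 12 markers and 0 collagen genes, with 3.91% of all genes, and cerebellum arrays 12 and 3 (7.14%), with 11.9% of all genes. The collagen genes were thus near the share of all genes in each region. The medians of these spans were 1.01 for the markers, 0.63 for the collagen genes and 0.56 for all genes in the cortex. Meningeal marker means were highest on cortex KO 1 (10.06), hippocampus KO 1 (10.09) and cerebellum KO 3 (10.19) of their regions. Col3a1 was also highest in its region on cortex KO 1 (7.59) and cerebellum KO 3 (7.47), but not on hippocampus KO 1. Col1a1 and Col1a2 were highest on none of these 3 arrays, and Col1a2 was lowest of the cerebellum on KO 3 (8.40). Hippocampus KO 4 had the lowest marker mean of its region (9.21) and the highest Col1a1 value (10.09), on an array where many collagen genes and other gene families were high. The cells that supplied the RNA of each gene were not tested, so the 42 genes are called collagen genes here.

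The less usual fibrillar chains did differ between regions. Col27a1, a chain of cartilage, was higher in the cerebellum. Its WT arrays read 7.73, 7.996, 7.90 and 7.42 in the cortex, 7.53, 7.75, 7.86 and 7.57 in the hippocampus, then 8.38, 8.22, 8.18 and 8.64 in the cerebellum. Its KO arrays read 7.80, 7.77, 7.69 and 7.66, then 7.46, 7.58, 7.52 and 8.01, then 8.47, 8.79, 8.27 and 8.64 in the same order of regions. All cerebellum arrays stood above all others. Cerebellum minus cortex was 0.59 in WT (SE 0.14, adjusted p = 0.00136) and 0.81 in KO (SE 0.14, adjusted p = 5.401e-05). Cerebellum minus hippocampus was 0.68 (adjusted p = 0.000374) and 0.90 (adjusted p = 1.434e-05).

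Col24a1, a fibrillar chain known from developing bone, was highest in the cortex. It read 7.14, 7.37, 7.72 and 7.09 in cortex WT and 8.68, 7.30, 7.25 and 8.51 in cortex KO. Hippocampus arrays lay between 6.21 and 6.84 and cerebellum arrays between 6.26 and 6.90. Every cortex array was above every other array, and within the KO group the arrays of animals 1 and 4, those with high olfactory bulb markers, stood apart from the other 2. In WT the hippocampus differed from the cortex by -0.88 (SE 0.24, adjusted p = 0.02467) and the cerebellum by -0.87 (SE 0.24, adjusted p = 0.005177). In KO the differences were -1.43 (adjusted p = 0.0002556) and -1.25 (adjusted p = 0.0001975), both past 2-fold. Without cortex KO 1 and KO 4 they were -0.78 (adjusted p = 0.01465) and -0.59 (adjusted p = 0.02208), under 2-fold. Col5a1, a chain that starts fibrils, was lower in hippocampus and cerebellum than in cortex in WT, by 0.72 (adjusted p = 0.01023) and 0.69 (adjusted p = 0.002274), with no overlap. The KO differences of -0.39 and -0.27 did not pass. Col11a1 was lower by 0.43 in cerebellum than cortex in WT (adjusted p = 0.003808), and its KO difference of -0.14 did not pass. Col5a2 was lower by 0.41 in KO (adjusted p = 0.02034). That value was -0.27 without cerebellum KO 4, and it did not pass without cortex KO 1 and KO 4 either (adjusted p = 0.0784). Col2a1, Col5a3 and Col11a2 passed in no region comparison.

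Among the transmembrane collagens, Col25a1, made by neurons and known for its binding to amyloid plaques, was lower in the cerebellum than in the hippocampus. In WT it read 9.13, 8.98, 10.10 and 9.39 in the cortex, 9.44, 9.99, 9.60 and 9.89 in the hippocampus, then 8.43, 9.14, 8.71 and 8.56 in the cerebellum. In KO it read 9.02, 9.13, 8.96 and 8.81, then 9.40, 9.63, 9.65 and 9.75, then 8.53, 8.84, 8.90 and 8.75. Hippocampus and cerebellum did not overlap in either genotype. The difference was -1.02 in WT (SE 0.18, adjusted p = 6.843e-05), just past 2-fold, and -0.85 in KO (SE 0.18, adjusted p = 0.0006509). It fell under 2-fold in WT when hippocampus WT 2 or WT 4 or cerebellum WT 1 or WT 4 was left out. Hippocampus minus cortex was 0.63 in KO (adjusted p = 0.03571) and 0.33 in WT, where it did not pass. Without cortex KO 1 and KO 4 the KO value was 0.56 and did not pass (adjusted p = 0.186). Cerebellum minus cortex was -0.69 in WT (adjusted p = 0.00379) and -0.22 in KO, where it did not pass. Cortex WT 3, at 10.10, was the highest of its group, and without it the WT value was -0.46 (adjusted p = 0.02729). Hippocampus minus cortex in WT was then 0.56 and passed (adjusted p = 0.03059). Col13a1, Col17a1 and Col23a1 passed in no region comparison.

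Of the FACIT chains, Col9a3, a type IX chain of cartilage, passed as higher in the cerebellum in WT. It read 11.01, 10.91, 11.43 and 11.36 in cortex WT, 10.89, 11.12, 10.90 and 11.13 in hippocampus WT and 11.88, 11.79, 11.40 and 11.47 in cerebellum WT. In KO it read 11.09, 11.07, 11.07 and 10.79, then 11.48, 10.92, 11.10 and 11.23, then 11.32, 11.33, 10.88 and 11.45. Cerebellum minus cortex was 0.46 in WT (SE 0.15, adjusted p = 0.01571) and cerebellum minus hippocampus 0.62 (SE 0.15, adjusted p = 0.001418). The KO differences of 0.24 and 0.06 did not pass, and the test of whether KO effects differed by region did not pass either (adjusted p = 0.9308). The highest hippocampus value, 11.48, was on KO 1, the array with the highest choroid plexus marker mean of that region. Col16a1 was lower in cerebellum than cortex by 0.40 in WT (adjusted p = 0.02141), with -0.17 in KO, where it did not pass. Col19a1 was lower in the cerebellum in KO, by 0.43 against the cortex (adjusted p = 0.026) and by 0.42 against the hippocampus (adjusted p = 0.03163). The first was -0.34 without cortex KO 1 and KO 4 and did not pass (adjusted p = 0.1796). The other 5 FACIT chains passed in no region comparison. Of the short-chain collagens, Col8a2, a chain of the corneal and endothelial sheet, was lower in cerebellum than cortex by 0.34 in WT (adjusted p = 0.02224), and its KO difference of -0.29 did not pass. Col8a1 and Col10a1 passed in none.

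**Figure D2:**
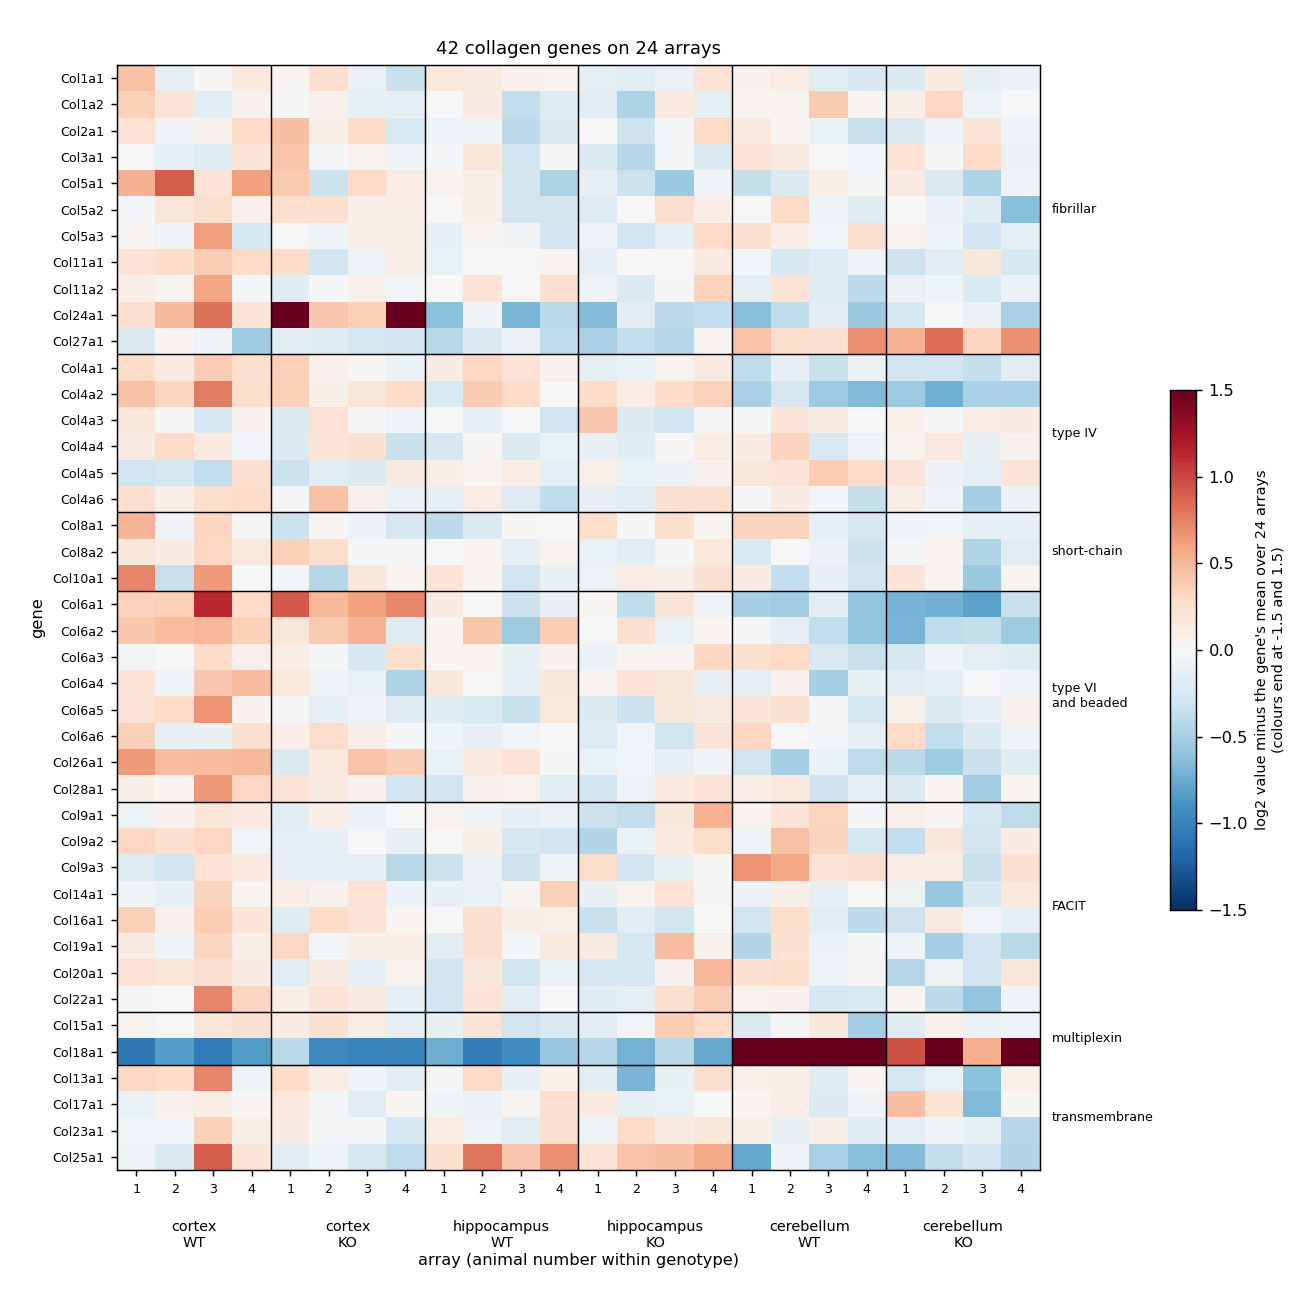
Each row is 1 of 42 collagen genes, grouped by class, and each column 1 of 24 arrays, grouped by region and genotype with the animal number below. Colour gives the log2 value minus the mean of that gene over the 24 arrays, with red above and blue below and the colours ending at -1.5 and 1.5. Col18a1 is high on all 8 cerebellum arrays, and most other rows are pale, apart from columns such as cortex WT 3 in which many rows are red together.

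Counted together, few of the 42 genes passed both the 2-fold minimum and an adjusted p under 0.05. For hippocampus minus cortex in WT no collagen gene was called, against 0.746% of the 19572 rows called higher and 0.618% called lower. Without the fold minimum 4 were lower and 0 higher, against 2.97% and 4.04% of rows. For cerebellum minus cortex in WT, 1 was called higher and 0 lower, against 4.51% and 5.47%. Without the minimum 4 were higher and 12 lower, against 19.1% and 16.6%. For cerebellum minus hippocampus in WT, 1 was called higher and 1 lower, against 3.98% and 5.85%, and without the minimum 3 were higher and 4 lower, against 17.5% and 17.2%. Among these WT counts without the fold minimum, the genes lower than in the cortex, 4 and 12 of 42, made up a larger share than among all rows. The genes higher or lower in cerebellum than hippocampus, 3 and 4 of 42, made up a smaller one.

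In KO, 10 genes passed at any fold for cerebellum minus cortex, against 16 in WT, and 7 in each genotype for cerebellum minus hippocampus. Hippocampus minus cortex in KO had 0 called higher and 1 lower, against 0.945% and 0.899% of rows, and 1 higher and 2 lower without the fold minimum, against 3.75% and 3.03%. Cerebellum minus cortex had 1 called higher and 2 lower, against 3.63% and 4.58%, and 2 higher and 8 lower without the minimum, against 17.9% and 14.1%. Cerebellum minus hippocampus had 1 called higher and 0 lower, against 3.49% and 4.63%, and 2 higher and 5 lower without the minimum, against 16.6% and 14.6%. WT and KO share no animal, so the genotypes could be set side by side. For cerebellum minus cortex 8 genes passed in the same direction in both, which is 50% of the 16 WT genes and 80% of the 10 KO genes. Among all rows the shares were 73.3% and 81.7%, so the WT share of the collagen genes was the lower one. These were Col4a1, Col4a2, Col6a1, Col6a2, Col18a1, Col24a1, Col26a1 and Col27a1. For cerebellum minus hippocampus the 4 shared genes were Col4a2, Col18a1, Col25a1 and Col27a1, 57.1% of the 7 in each genotype, against 73.9% and 82.4% of the rows that passed in WT and in KO. For hippocampus minus cortex they were Col6a1 and Col24a1, 50% of the 4 WT genes and 66.7% of the 3 KO genes, against 56.3% and 58.2% of rows.

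Over the 6 region comparisons, 47 differences of collagen genes passed an adjusted p of 0.05 at any fold, and 33 of these passed without each array of their groups in turn. The other 14 were lost without at least 1 array. They included all 4 differences between hippocampus and cortex in WT. Col5a1 was lost there without cortex WT 2 or hippocampus WT 4, Col6a1 without cortex WT 3, hippocampus WT 3 or hippocampus WT 4, and Col26a1 without cortex WT 1, hippocampus WT 1 or hippocampus WT 4. Col24a1 was lost when any 1 of 5 arrays was left out, cortex WT 2 and 3 and hippocampus WT 1, 3 and 4. For cerebellum minus cortex in WT, Col6a4, Col8a2, Col9a3 and Col16a1 were lost, the first without cortex WT 3 or 4 or cerebellum WT 3. Col8a2 was lost without cortex WT 3 or cerebellum WT 1 or 4, Col9a3 without cortex WT 1 or 2 or cerebellum WT 1, and Col16a1 without cortex WT 1 or 3 or cerebellum WT 1 or 4. Col26a1 for cerebellum minus hippocampus in WT was lost without hippocampus WT 3 or cerebellum WT 2.

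In KO, Col25a1 for hippocampus minus cortex was lost without cortex KO 1, 3 or 4 or hippocampus KO 2, 3 or 4. For cerebellum minus cortex, Col5a2 was lost without cortex KO 1 or 2 or cerebellum KO 4, and Col19a1 without cortex KO 1 or cerebellum KO 2 or 4. For cerebellum minus hippocampus, Col6a2, at -0.53, was lost without hippocampus KO 2 or cerebellum KO 1, and Col19a1 without hippocampus KO 1, 3 or 4 or cerebellum KO 2 or 4. The adjusted p-values of all these left-out fits lay between 0.05053 and 0.1523. The differences of Col18a1, Col27a1, Col4a1 and Col4a2 passed without each array in turn wherever they passed at all.

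**Figure D3:**
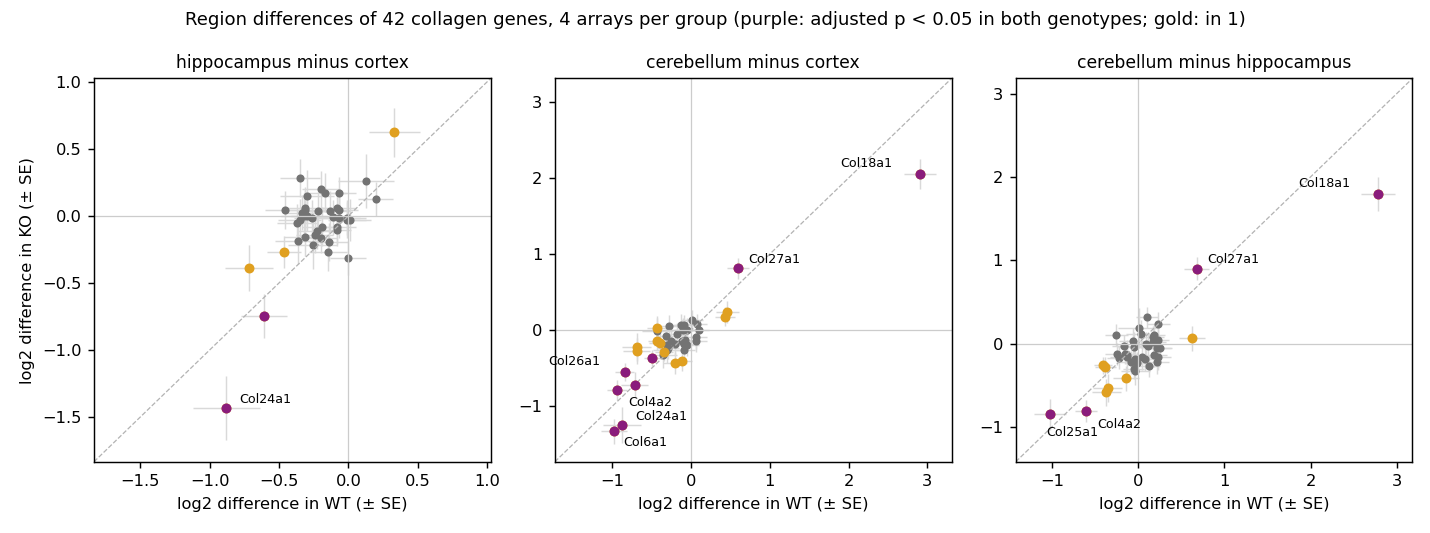
Log2 differences between regions of 42 collagen genes, in WT on the horizontal axis and in KO on the vertical axis, with standard errors as grey bars and equality as the dashed line. Purple points passed an adjusted p of 0.05 in both genotypes and gold points in 1. Col18a1 lies far to the upper right in both comparisons with the cerebellum, at 2.91 and 2.05 against the cortex.

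No collagen gene passed the test for the knockout. In each region, over animals, and for KO effects that differ by region, 0 of the 42 collagen genes and 0% of the 19572 rows reached an adjusted p under 0.05 with limma, in either direction. At an unadjusted p under 0.05 there were 8 of 42 collagen genes in the cortex, against 7.45% of all rows (1459). The hippocampus had 1, against 2.11% (412 rows), and the cerebellum had 2, against 9.5% (1860 rows). The same count was 3 over animals, against 6.8% (1331 rows), and 3 for the difference between regions, against 4.97% (973 rows). In the cortex 33 of the 42 genes were lower in KO and 9 higher, with a median of -0.15 against -0.01 for all rows. Without cortex KO 1 and KO 4, 31 were lower with a median of -0.09, and without cortex WT 3 also 31 with a median of -0.10. The hippocampus had 17 lower and 25 higher (median 0.05, against 0.0074 for all rows). The cerebellum had 29 lower and 13 higher (median -0.07, against -0.0037). With each animal's 3 regions averaged, 36 of 42 were lower in KO, with a median of -0.08 against 0.0014 for all rows. The share of all rows lower in KO was not counted, and collagen genes shifted together on single arrays, as described below. Without animals KO 1 and KO 4, 35 were lower with a median of -0.10.

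**Figure D4:**
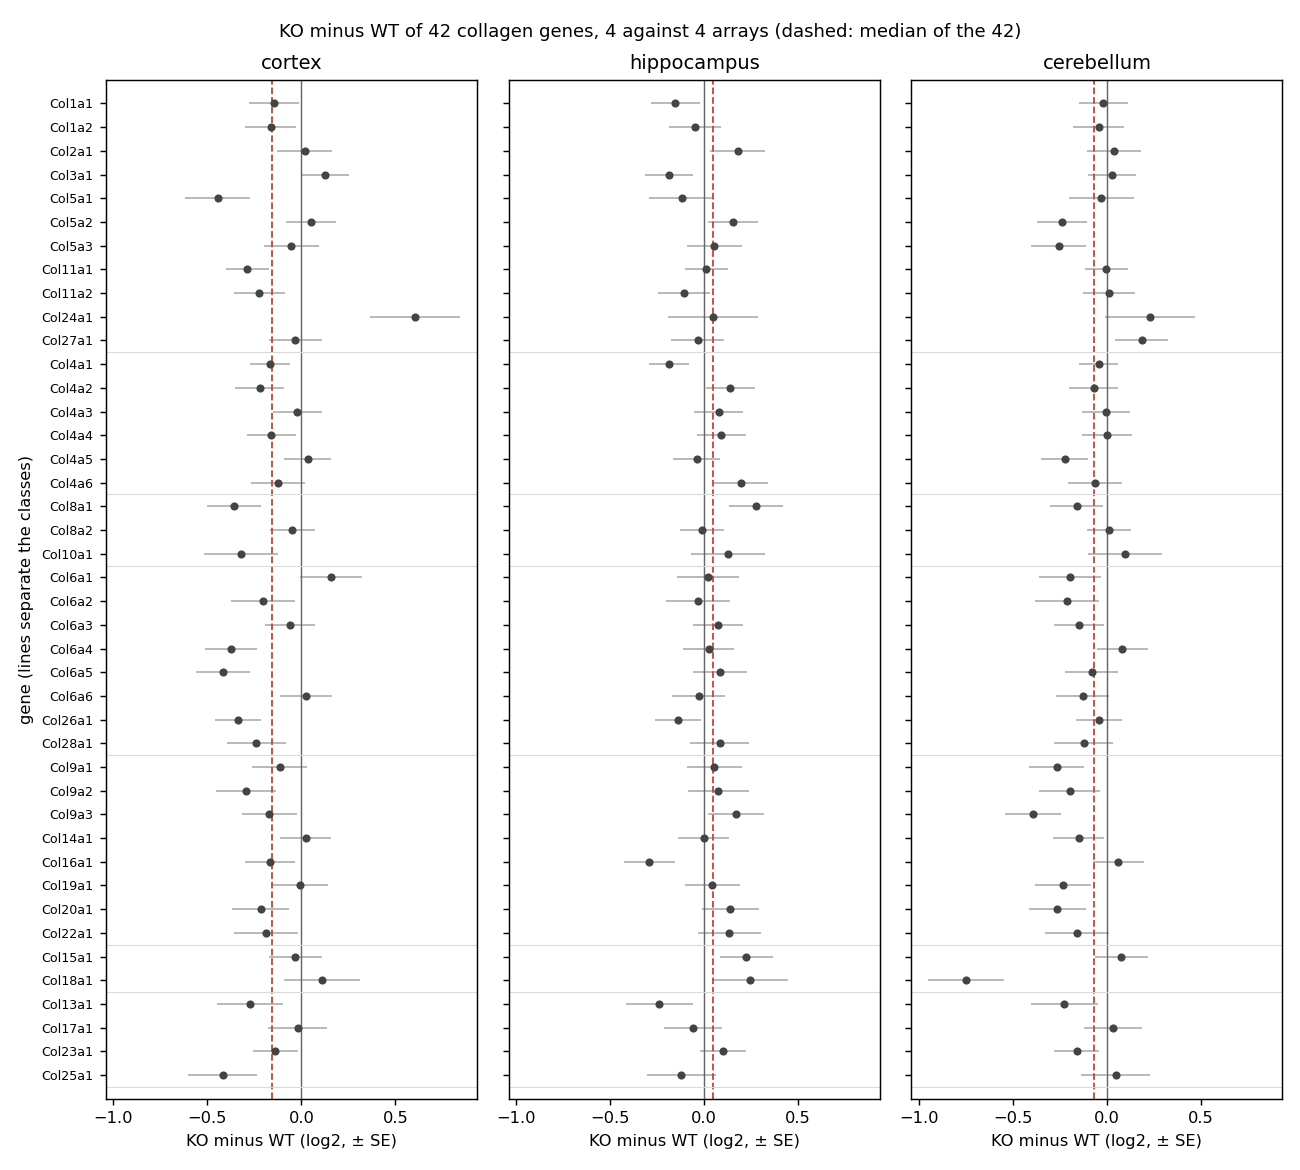
KO minus WT of the 42 collagen genes in cortex, hippocampus and cerebellum, as log2 differences with standard errors, 4 arrays against 4. The dashed red line is the median of the 42 genes, at -0.15, 0.05 and -0.07. Col24a1 in the cortex and Col18a1 in the cerebellum lie farthest from 0, and none passed the adjusted threshold.

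The precision of these comparisons can be read from the 95% intervals of the limma fit. In the cortex 25 of 42 genes had an interval that lay wholly between -0.5 and 0.5, and 41 lay between -1 and 1. For the hippocampus these counts were 35 and 42, for the cerebellum 29 and 41. On the scale of the array values, a 2-fold difference thus lay outside the interval of all genes in the hippocampus. The same held for all but 1 gene in each of the other regions. These intervals were not adjusted for the number of genes. RMA draws dim rows together, so for such rows they set no limit on the difference in RNA. For Col1a1 the interval was -0.42 to 0.12 for cortex, -0.42 to 0.12 for hippocampus and -0.29 to 0.25 for cerebellum. For Col4a2 it was -0.49 to 0.05, -0.13 to 0.41 and -0.34 to 0.20.

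The genes of smallest p in the cortex were Col6a5, Col26a1, Col6a4 and Col5a1, all lower in KO. Col6a5, a type VI chain, was 7.50, 7.58, 7.95 and 7.34 in WT and 7.25, 7.14, 7.23 and 7.08 in KO, so that no array overlapped, and the difference was -0.42 (SE 0.14, adjusted p = 0.5524). Col26a1 was 8.71, 8.53, 8.54 and 8.57 in WT and 7.85, 8.23, 8.49 and 8.43 in KO. Its arrays did not overlap either, and the difference was -0.34 (SE 0.12, adjusted p = 0.5532). Col6a4 differed by -0.37 (SE 0.14, adjusted p = 0.5669), with WT at 7.34, 7.10, 7.55 and 7.63 and KO at 7.31, 7.08, 7.06 and 6.69. Col5a1 differed by -0.44 (SE 0.17, adjusted p = 0.5886), with WT at 7.67, 8.05, 7.36 and 7.76 and KO at 7.54, 6.83, 7.45 and 7.26. Both overlapped. Without cortex KO 1 and KO 4 the differences of these 4 genes were -0.41, -0.23, -0.34 and -0.58 in the same order (adjusted p = 0.9986 for each). Col24a1, described above, was 0.60 higher in cortex KO (SE 0.24, adjusted p = 0.5912), and -0.06 without the 2 arrays of high olfactory bulb markers.

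In the cerebellum the genes of smallest p were Col18a1, Col9a3, Col9a1 and Col4a5, all lower in KO. Col18a1 differed by -0.75 (SE 0.20, unadjusted p = 0.001114, adjusted p = 0.4355), with 95% limits of -1.16 and -0.33, and its WT and KO arrays overlapped. Cerebellum KO 3, with the brainstem markers, held the lowest value, and without it the difference was -0.52 (SE 0.19, adjusted p = 0.9993). Its share in the difference beyond this was not tested. Col18a1 was also the collagen gene of smallest p for KO effects that differ by region (F = 7.03, unadjusted p = 0.003808, adjusted p = 0.9308), with KO minus WT at 0.11 in the cortex and 0.24 in the hippocampus. Col9a3 differed by -0.39 in the cerebellum (SE 0.15, adjusted p = 0.4355), and by -0.27 without KO 3. Col9a1 was 7.57, 7.72, 7.83 and 7.49 in cerebellum WT and 7.59, 7.56, 7.25 and 7.14 in KO, a difference of -0.27 (adjusted p = 0.5699). Col4a5 differed by -0.22 (adjusted p = 0.5711), and KO arrays 1 and 4, at 6.79 and 6.80, lay within the WT range.

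In the hippocampus all 42 adjusted p-values were 1. The smallest p was that of Col16a1, a FACIT chain, which read 9.52, 9.77, 9.62 and 9.61 in WT and 9.19, 9.37, 9.26 and 9.54 in KO, a difference of -0.29 (SE 0.13). Col8a1, a short-chain collagen of vessel walls, followed at 0.28 (SE 0.14), with 7.35, 7.52, 7.76 and 7.73 in WT and 7.998, 7.70, 7.98 and 7.78 in KO. Col4a1 differed by -0.19 and Col15a1 by 0.22, the latter at 8.41, 8.73, 8.22 and 8.29 in WT and 8.35, 8.48, 8.90 and 8.80 in KO. The groups overlapped for all 4 genes.

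Over animals, Col13a1, a transmembrane chain of neuromuscular junctions, had the smallest p. Its animal means were 9.68, 9.78, 9.71 and 9.57 in WT and 9.51, 9.33, 9.29 and 9.61 in KO, a difference of -0.25 (SE 0.08, adjusted p = 0.7202). Col24a1 was at 0.29 (adjusted p = 0.7202), Col26a1 at -0.17 and Col4a1 at -0.13 (adjusted p = 0.7284 for both). Without animals KO 1 and KO 4, whose cortex arrays had high olfactory bulb markers, Col24a1 was at 0.17 (adjusted p = 0.6275) and Col13a1 at -0.37 (adjusted p = 0.2002). For Col4a1 the 4 KO animals, at 9.31, 9.23, 9.24 and 9.30, all lay below the WT animals, at 9.34, 9.44, 9.41 and 9.41.

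Many collagen genes shifted together from array to array within a group. Cortex WT 3 was the highest of its 4 arrays for 25 of the 42 genes, against 32.42% of all rows, and hippocampus KO 4 was the highest for 23, against 31.44%. Hippocampus WT 2 and cerebellum WT 2 were each the highest for 21, against 27.59% and 25.63% of all rows. Cortex KO 1 was the highest for 20, against 33.01%. The median of the collagen genes on cortex WT 3 lay 0.13 above the mean of its group, that of all rows 0.02. Gene families with little known expression in brain, chosen for comparison after the values were seen, mostly moved in the same way. The median deviation of 1091 odorant receptor rows had the same sign as that of the collagen genes on 23 of 24 arrays, and that of 50 keratin-associated protein rows on 19. For 49 keratin rows this held on 21 arrays and for 39 beta-defensin rows on 20. The array with the highest median was the same for collagens and keratin-associated proteins in 5 of the 6 groups, and for collagens and odorant receptors in 4. The array with the lowest median was the same in 4 and 5 groups. Cortex KO 1, highest of its group for the collagens (0.07), was at 0.02 for odorant receptors. It was at -0.03 for keratin-associated proteins and keratins and at -0.07 for beta-defensins.

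**Figure D5:**
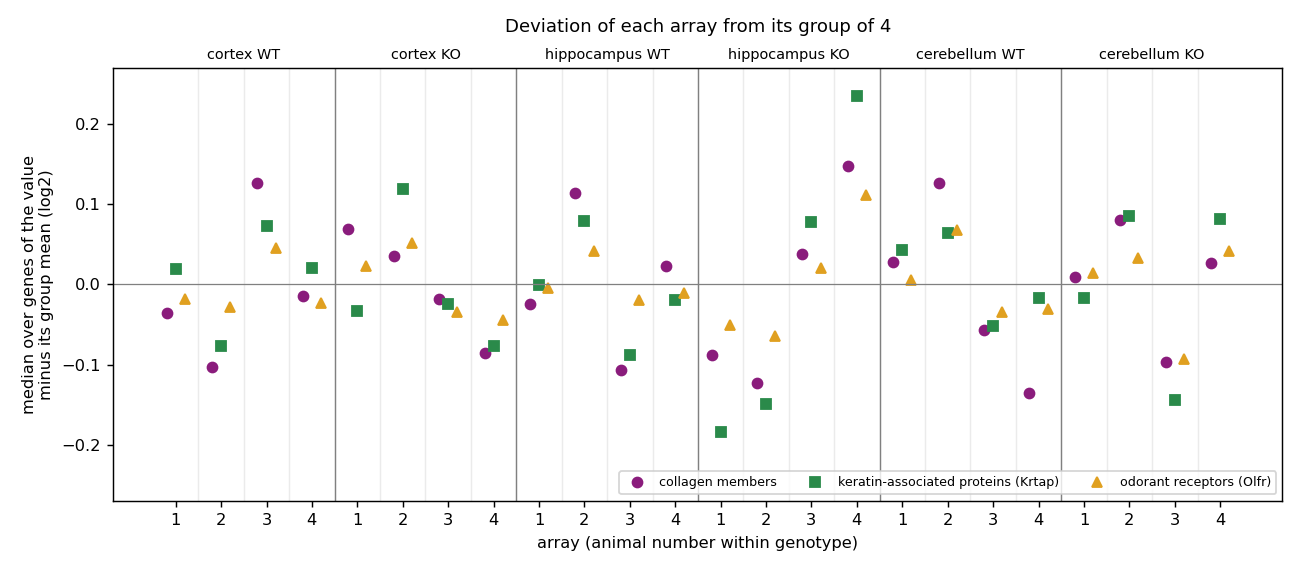
For each of the 24 arrays, the median over genes of the log2 value minus the mean of the 4 arrays of its group, for 42 collagen genes (purple circles), 50 keratin-associated protein rows (green squares) and 1091 odorant receptor rows (gold triangles). Hippocampus KO 4 is the highest of its group for all 3 sets, at 0.15, 0.23 and 0.11, and cerebellum KO 3 the lowest of its group.

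Between groups these families resembled the collagen genes in some comparisons and not in others. In the cortex 38 of 50 keratin-associated protein rows were lower in KO, with a median of -0.10, and the odorant receptor median was -0.05, beside -0.15 for the collagen genes. In the cerebellum 42 of 50 keratin-associated protein rows and 765 of 1091 odorant receptor rows were lower in KO, with medians of -0.12 and -0.07. The collagen genes there had 29 of 42 lower and a median of -0.07. For the hippocampus the KO minus WT medians were -0.002, 0.02 and 0.05 in the same order. Hippocampus minus cortex in WT had 47 of 50 keratin-associated protein rows lower, with a median of -0.20, and an odorant receptor median of -0.10, beside 38 of 42 collagen genes lower with a median of -0.21. For cerebellum minus cortex in WT the medians were -0.01, -0.03 and -0.20 in the same order. For cerebellum minus hippocampus in WT the keratin-associated median was 0.18, with 7 of 50 lower, the odorant receptor median 0.07, and the collagen median -0.0016, with 21 of 42 lower. Their part in the collagen differences was not tested. The standard deviation of the collagen genes within groups had a median of 0.20, against 0.19 for all rows, and over all 24 arrays 0.23 for both.

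The other genes of collagen biosynthesis and of the matrix around it came from 8 lists, of which 99 genes were measured, and here too no gene passed for the knockout in any region. The member of smallest p in each list had an adjusted p of at least 0.3662, which was that of Postn (periostin), 0.73 higher in cortex KO, and 0.50 without cortex KO 1 and KO 4 (adjusted p = 0.9986). The counts below are for cerebellum minus cortex, where 4.51% of all rows were called higher and 5.47% lower in WT, and 3.63% and 4.58% in KO. No list was tested against these shares. Among 14 collagen-modifying enzymes, which hydroxylate and glycosylate the chains, none was called in either genotype. At any fold 3 were higher and 5 lower in WT, or 21.4% and 35.7%, against 19.1% and 16.6% of all rows, and 2 were higher and 2 lower in KO. P4ha3, a prolyl 4-hydroxylase subunit, fell by 0.98 in WT (adjusted p = 3.516e-05) and by 0.62 in KO (adjusted p = 0.005325). Of 8 chaperone and export genes, Fkbp14 was the 1 called, higher by 1.15 in WT (adjusted p = 4.4e-07) and 1.22 in KO.

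Of 12 genes of procollagen processing and crosslinking, 2 were called higher and 0 lower in each genotype. Both were proteases of the family that cleaves procollagen ends. Tll1 was at 4.36 in WT (SE 0.36, adjusted p = 3.249e-10) and 3.10 in KO, and Bmp1 at 1.5025 in WT (SE 0.24, adjusted p = 1.711e-05) and 1.25 in KO. Of 14 proteoglycans and glycoproteins of fibrils, 1 was called higher and 1 lower in each genotype, Sparc at 1.53 in WT and 2.28 in KO and Matn2 at -1.02 and -1.42. Dcn was called higher in hippocampus than cortex, by 2.17 in WT (adjusted p = 0.003997) and 1.97 in KO (adjusted p = 0.007725). Among 13 degrading enzymes and their inhibitors, 1 was called higher and 2 lower in WT, and 1 higher and 1 lower in KO. Timp4 was higher by 2.86 in WT and 3.11 in KO. Timp2 was at -2.93 in WT and -1.51 in KO, and Mmp16 at -1.17 in WT and -0.93 in KO, where it passed the adjusted p but not the 2-fold minimum. Timp2 was also the gene of smallest p of this list for KO minus WT in the cerebellum, at 1.26 (adjusted p = 0.4355), and 0.68 without cerebellum KO 3. Of 9 collagen receptors none was called in either genotype.

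Of 15 basement membrane partners, which share the sheet with type IV collagen, 1 was called higher and 2 lower in WT, and 1 higher and 3 lower in KO. Lamb1, a laminin chain, was higher by 1.35 in WT and 1.28 in KO. Pxdn, the peroxidase that crosslinks type IV collagen, was at -2.82 in WT (SE 0.17, adjusted p = 1.128e-12) and -2.50 in KO, and agrin (Agrn) at -1.82 and -1.45. Col4a1 and Col4a2 were lower in the same comparison, and Col18a1 was higher. Of 14 TGF-beta pathway genes 3 were called higher and 2 lower in WT, and 2 higher and 0 lower in KO. Ltbp2 was at 1.69 in WT and 1.34 in KO. Tgfbr1 was at -1.33 in WT and -0.89 in KO (adjusted p = 0.0002261), where it stayed under 2-fold. In hippocampus against cortex Tgfb2, a ligand of this pathway, was higher by 3.14 in WT (adjusted p = 6.592e-13) and 2.92 in KO. No collagen gene was called higher there, where 0.746% of all rows were called higher in WT and 0.945% in KO. A link between Tgfb2 and the collagen genes was not tested.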

How the data were processed

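Total RNA of 24 brain samples was measured on 1 array each. The deposited values carry no unit; the submitters' processing notes name RMA, a method that corrects background, normalizes arrays together and summarizes probes, and from their range the values were taken as log2 values made by the authors. The sources used here give no RMA version, log base or genome build. The labels name biotin while their protocol describes Cy3-labelled cRNA, so the labelling is not settled. RMA draws dim rows together, so small values understate differences. Whether a row stood above background on an array was not analysed here, and the number of arrays limits the precision.

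Rows were named by the platform annotation. Of 22206 rows, 19572 carried 1 gene and were tested and 2634 without a gene were left out. The values were fitted as deposited with limma 3.58.1 in R 4.3.3 (lmFit, eBayes, 2-sided), with 1 mean per group over all arrays (18 residual degrees of freedom, prior 6.9). Animal means of the 3 regions were fitted separately for the comparison over animals. P-values were adjusted by Benjamini-Hochberg over the 19572 rows. Region calls needed an adjusted p under 0.05 and a 2-fold difference, knockout calls the adjusted p alone. The code was tested on simulated data. Errors are standard errors from limma, each group having 4 arrays. In the fit over all arrays, p-values rest on the spread between animals within groups, pooled over all groups for each gene and moderated by the prior. They do not measure the spread of 1 group alone, and the 3 arrays of an animal counted as separate. An exact permutation of 4 against 4 cannot give a 2-sided p below 0.0286.

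Arrays of the same animal in different regions had correlations of their deviations from -0.19 to 0.30, and the consensus correlation was 0.00646 (statmod 1.5.0). WT and KO animals of the same number are different animals and were not paired in the main fit. The replicate block (animal number), used as an alternative for the knockout, did join them by number.

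Values by array, their range or animal means were given, for some genes in part of the regions only. This was done for a set of 12 genes chosen for their roles, for the 4 genes of smallest p in each knockout comparison and for region calls in WT. Further collagen genes were named after their values were seen. The genes and lists were chosen with earlier results of these data known. Alternatives were another normalization, prior, filter and set of rows, blocks for the animal or for the animal number, and leaving out arrays.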

Additional observations from a re-analysis of the deposited data

Results flagged for a closer look

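The 21 collagen genes looked at were those chosen for their roles, of smallest p for the knockout or called between regions. Some of them are given above only by range. Each group of 4 arrays was examined for a highest or lowest array far from the others, by Dixon's ratio of the gap to the range. Of 126 such groups 5 had one, and chance alone gives about 1 in 20. Col1a1 was high on hippocampus KO 4, at 10.09 against 9.73 to 9.78 on the other 3 arrays. Col6a1 was high on cortex WT 3, at 10.66 against 9.81 to 9.89. These 2 arrays were also those on which most collagen genes were the highest of their group. Col1a2 was high on cerebellum WT 3, at 8.87 against 8.50 to 8.52. Col9a3 was low on cortex KO 4, at 10.79 against 11.07 to 11.09, and Col18a1 was high on cortex KO 1, at 8.03 against 7.45 to 7.48. Cortex KO 1 and cortex KO 4 are the arrays with high olfactory bulb markers, whose part in these 2 values was not tested.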

How the results depend on the processing

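Under the alternatives, the counts of collagen genes and the values of up to 4 genes of smallest p per comparison gave 948 values. Of these, 912 kept their direction and their side of the threshold (or, for counts, about their size), 16 lost the threshold, 20 counts moved and 0 reversed. A count that went from 3 to 2 was scored as kept. Many of the 948 could hardly change, such as counts of comparisons that do not use the array left out. Losses among genes of larger p, given above, are not in these numbers. Col24a1 for KO minus WT in the cortex was not among them either. It changed sign without cortex KO 1 and KO 4. The knockout counts were 0 under every alternative run, the replicate block (animal number) included, which also gave 0 in each region. That block joins WT and KO arrays of different animals by their number and is not a block for the animal. With the animal as a fixed replicate block or a random block the region counts stayed at 0, 1 and 2 in WT and 1, 3 and 1 in KO (hippocampus minus cortex, cerebellum minus cortex, cerebellum minus hippocampus). Without a fold minimum these counts were 4, 16 and 7 in WT and 3, 10 and 7 in KO. With quantile normalization on top, cerebellum minus hippocampus in WT gave 1 in place of 2. Hippocampus minus cortex in KO gave 0 in place of 1 when dim rows were left out, which removes Col24a1, and when cortex KO 1 and KO 4 were left out. Col24a1 was also 1 of the 3 genes called for cerebellum minus cortex in KO. It was not called there under either of these 2 settings. Leaving out 1 array at a time, the WT counts ranged from 0 to 1 for hippocampus minus cortex (1 without hippocampus WT 2), from 1 to 2 for cerebellum minus cortex (2 without cortex WT 1, 2 or 4 or cerebellum WT 2 or 3), and from 1 to 2 for cerebellum minus hippocampus (1 without hippocampus WT 2 or 4 or cerebellum WT 1 or 4). In KO the count for cerebellum minus hippocampus ranged from 1 to 2, with 2 without hippocampus KO 4. The causes of these changes were not tested. The filter on dim rows kept 36 of the 42 genes and 14679 rows. Region differences near 2-fold thus move across that limit with 1 array, and for collagen genes at the lower end of the scale signal over background limits what can be read.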
